A study of Mus musculus with 8 samples.

Results

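The Hippo pathway and angiomotin genes examined here are 10 genes, Amot, Amotl1, Amotl2, Yap1, Wwtr1, Lats1, Lats2, Tead1, Ccn1 and Ccn2, of 22908 genes with a symbol on the array. They were measured by the 17 probes whose transcript accession maps to one of them. Each gene is represented by its brightest probe. RNA levels came from 1-colour microarrays of TEC71, an immortalized line derived from epithelial cells of the mouse thymic medulla, grown as a monolayer in serum-containing medium. The control group (3 arrays) carried RNA of TEC71 cells transfected with Cas9n, a Cas9 that nicks a single DNA strand, and one guide RNA. The other groups were 2 clones with the T1211A mutation in Gtf2i, the gene of the transcription factor TFII-I, named clone 1, with 3 arrays, and clone 3, with 2 arrays. Each knock-in group is a single clone, so that a property of a clone and an effect of the mutation cannot be told apart. The labels do not say whether the control cells were a clone or a pool. The labels do not say whether replicates came from separate cultures, so the spread between them may be technical. The 10 genes were chosen by their role in the pathway and by their signal differences between these groups on these same arrays. Their levels are therefore given as a description, with no test.

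The Hippo pathway is a chain of kinases that holds back cell growth. The kinases encoded by Stk3 and Stk4 activate the kinases encoded by Lats1 and Lats2, which phosphorylate the coactivators YAP (Yap1) and TAZ (Wwtr1) and keep them out of the nucleus. In the nucleus YAP and TAZ bind the TEAD factors, among them Tead1, and raise transcription of targets such as Ccn1 and Ccn2, which encode secreted matricellular proteins. Amot, Amotl1 and Amotl2 encode the angiomotins, scaffold proteins at cell junctions and actin filaments that bind YAP and TAZ and can activate the LATS kinases. In epithelia the pathway is known for coupling cell contact, polarity and tension to proliferation.

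Promoter sequences show where letters bound by TEAD factors occur in genes of which several are themselves known YAP and TAZ targets. RefSeq windows of the 250 bases before the transcription start were held for 8 of the 10 genes, not for Tead1 and Ccn2. The TEAD motif was searched as CATTCC and, on the other strand, GGAATG. The windows of 4 of the 8 genes held it, those of Amotl2, Yap1, Wwtr1 and Ccn1, while 14.4% of 27025 genes with such a window did. Those 4 windows are shown, for Wwtr1 the first of a pair with the same match, beside that of Amot, the gene with the largest difference among the 10, which holds no match. Each is printed 5′ to 3′ on the strand of the gene, with build GRCm38.p6 coordinates and the match in capitals.
Amot, chrX:145487640-145487889, minus strand: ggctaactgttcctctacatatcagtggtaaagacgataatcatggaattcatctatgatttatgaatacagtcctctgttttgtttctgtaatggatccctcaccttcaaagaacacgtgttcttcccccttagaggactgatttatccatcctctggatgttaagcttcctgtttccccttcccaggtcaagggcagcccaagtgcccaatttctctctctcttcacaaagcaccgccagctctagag
Amotl2, chr9:102717554-102717803, plus strand: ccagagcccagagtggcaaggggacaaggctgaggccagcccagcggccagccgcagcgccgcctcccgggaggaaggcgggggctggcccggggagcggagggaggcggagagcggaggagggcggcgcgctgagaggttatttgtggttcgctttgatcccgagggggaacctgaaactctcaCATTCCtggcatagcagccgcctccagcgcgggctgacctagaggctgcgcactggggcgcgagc
Wwtr1, chr3:57575911-57576160, minus strand: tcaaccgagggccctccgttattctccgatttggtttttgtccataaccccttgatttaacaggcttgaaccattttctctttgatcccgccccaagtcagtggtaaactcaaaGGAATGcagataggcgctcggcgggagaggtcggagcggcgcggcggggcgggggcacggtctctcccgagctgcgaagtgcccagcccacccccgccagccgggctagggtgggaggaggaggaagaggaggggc
Yap1, chr9:8004597-8004846, minus strand: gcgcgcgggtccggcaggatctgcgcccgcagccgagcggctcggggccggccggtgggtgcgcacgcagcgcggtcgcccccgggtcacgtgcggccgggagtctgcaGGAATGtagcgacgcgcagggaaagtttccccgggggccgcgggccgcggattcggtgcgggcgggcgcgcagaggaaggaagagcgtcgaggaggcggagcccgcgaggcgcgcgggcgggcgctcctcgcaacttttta
Ccn1, chr3:145649986-145650235, minus strand: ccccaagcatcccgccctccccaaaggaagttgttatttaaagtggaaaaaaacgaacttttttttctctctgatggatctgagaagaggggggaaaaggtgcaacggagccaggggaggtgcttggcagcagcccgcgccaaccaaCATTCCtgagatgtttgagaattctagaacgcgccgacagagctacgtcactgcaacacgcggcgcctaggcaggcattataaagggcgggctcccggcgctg
The match lay 65 bases before the start in Amotl2, 103 bases in Ccn1, 136 bases in Wwtr1 and 141 bases in Yap1. The E-box CACGTG, which reads the same on both strands, was held by the windows of Amot, Yap1 and Lats2, and by 6.86% of all genes with a window. The AP-1 motif TGANTCA was found in 0 of the 8, against 7.82% of all. None of these motifs overlapped another in the windows of these genes. A match shows letters in a window, and binding was not measured here.

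A level is a log2 signal minus the array's 75th percentile, and levels of different probes are not compared with each other. Each array had 55.3% to 59.3% of its 56605 probes well above background and no saturated spot. The brightest spike-in signal was 2797 on the first clone 1 array and 17160 to 30390 on the other 7. The titles hold a pair of numbers for each array, read here as the row and column of its position. The first clone 1 array thus shared the first row with the 3 controls, and the other 4 arrays lay in the second row. Of 17 thymic epithelial markers 12 were above background on all 8 arrays, among them Epcam, Krt5, Krt8 and Foxn1. Of all genes and transcripts tested, 38.4% lay apart from the controls, without overlap and in the same direction, in both clones. Of these 12 markers 6 did. Epcam (-1.10 and -1.01 log2), Krt5 (-1.32 and -1.13), Ltbr (-0.52 and -0.79) and Trp63 (-0.65 and -0.99) were lower, and Cldn4 (1.52 and 1.17) and Pax9 (0.47 and 0.47) higher. Aire, which defines mature medullary cells, was above background on 3 arrays, and Fezf2, Cd40, Ccl21a and Pax1 on none. Of other cell types 2 of 8 fibroblast markers (Pdgfra and Col1a2) and 1 of 5 endothelial markers (Pecam1) were above background on every array. The blood cell markers Cd3e, Cd4 and Itgam were above background on every array, and Cd8a and Adgre1 on none. The summed level of the fibroblast markers was -0.06 to 0.28 in controls, -1.10 to -0.68 in clone 1 and -1.05 to -0.84 in clone 3. Of the fibroblast markers above background on every array, Pdgfra was lower in both clones without overlap (-1.30 and -1.83 log2). Col1a2 overlapped the controls in both (-0.13 and 0.14 log2). The part of such marker differences in the differences below was not tested. The summed endothelial markers overlapped between groups (-2.11 to -1.72 in controls, -2.34 to -1.87 in clone 1 and -1.97 to -1.94 in clone 3). The edited gene Gtf2i was at 4.41 ± 0.05 in controls (SD, n = 3) and fell in both clones (-0.46 log2 in clone 1, adjusted p = 0.00754, and -0.59 log2 in clone 3, adjusted p = 0.00421, limma), which does not check a point mutation.

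The levels of the 10 genes were set side by side between groups by whether the arrays overlapped. The clone 1 arrays did not overlap the control arrays in 7 of the 10, with 5 higher and 2 lower. By the same measure 46.5% of all 25353 genes and unnamed transcripts tested did not overlap. In clone 3 this held for 9 of the 10, with 6 higher and 3 lower, against 55.7% of all. In both clones, in the same direction, Amotl1, Amotl2, Wwtr1, Lats2 and Tead1 were higher and Amot and Ccn1 lower, 7 of 10 against 38.4% of all. Between the clones 6 of the 10 did not overlap, Amot, Yap1, Lats1 and Lats2 with clone 3 higher and Ccn1 and Ccn2 with clone 3 lower, against 28.5% of all. Nothing is read from these counts, since the genes were chosen on the same arrays and both clones are compared with the same 3 controls. The 10 had a median difference of 0.18 log2 (clone 1) and 0.29 log2 (clone 3), beside 0.00 and 0.02 over the 14719 tested genes with a symbol and -0.05 and -0.04 over all tested.

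**Figure D1:**
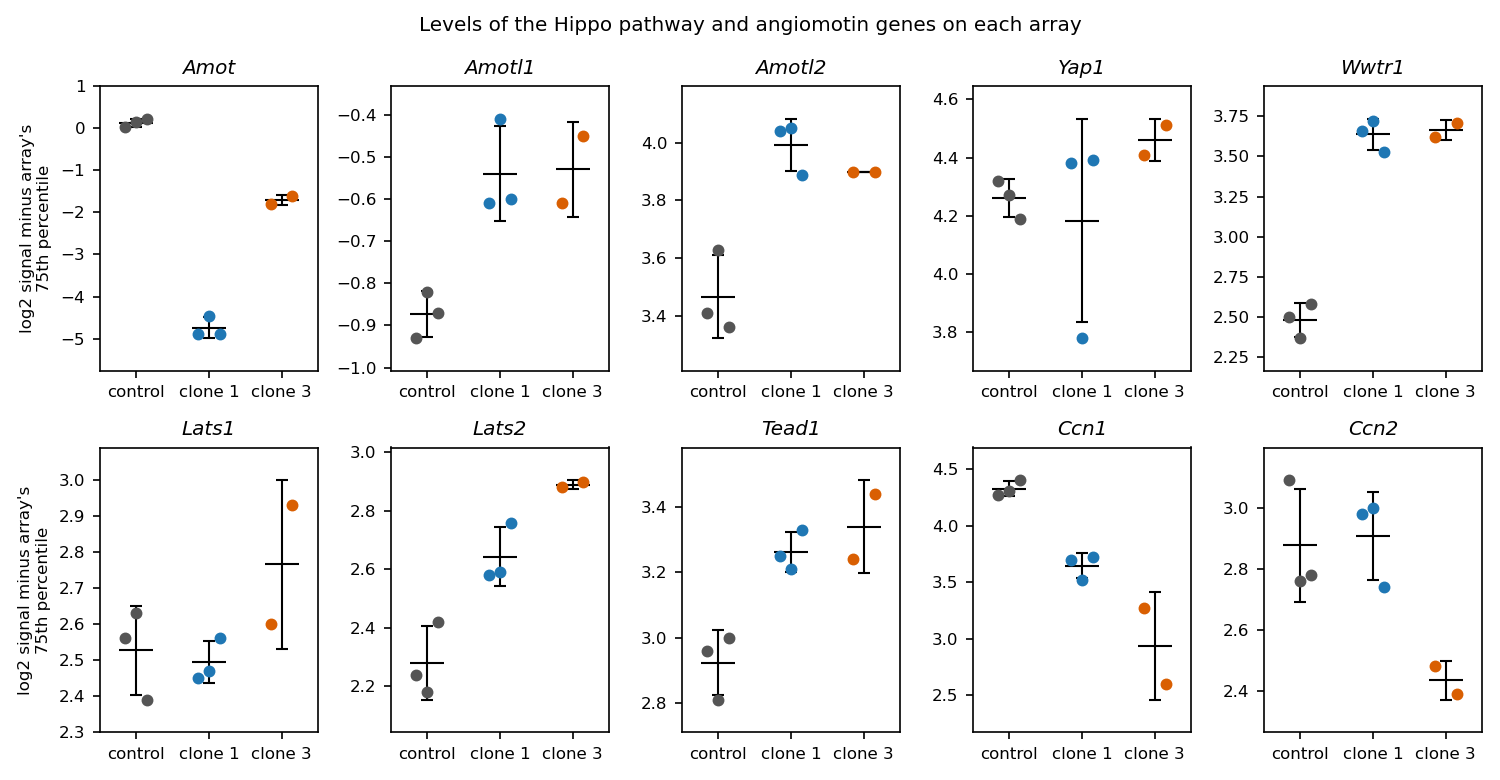
Level of each of the 10 genes on each array (points, log2 signal minus the 75th percentile of the array) in controls, clone 1 and clone 3, with the mean (long bar) and SD (error bar). Amot stands at 3 separate levels, with clone 1 near -4.74 and clone 3 at -1.71, and Wwtr1 at one level in controls and another in both clones.

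Among the angiomotins Amot, the founding member of the family, was far lower in both clones and to different depths. Its levels were 0.03, 0.15 and 0.21 on the control arrays, -4.88, -4.45 and -4.88 on the clone 1 arrays and -1.79 and -1.62 on the clone 3 arrays. The 3 groups did not overlap, in the order control, clone 3, clone 1. In the signal as deposited, before scaling, these were 274.5, 418.8 and 330.1 in controls, 10.8, 12.8 and 12.4 in clone 1 and 92.6 and 92.1 in clone 3. The difference from control was -4.87 log2 in clone 1 (SE 0.14), which is 29.2-fold, and -1.84 log2 in clone 3 (SE 0.16), which is 3.57-fold. Only the second of the 3 clone 1 arrays was well above background, so that the value of clone 1 rests on signals near background. With normexp background correction and an offset of 50, which compresses low signals, it was -2.56 log2, and -1.39 log2 in clone 3. Clone 3 lay 3.03 log2 above clone 1 (SE 0.16), but 1.17 log2 with normexp and 1.30 log2 with the mean of the 3 probes of Amot, so the size of this difference rests on the processing. Both other probes of Amot, which are assigned to another transcript accession, were above background on none of the 8 arrays.

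Amotl1 and Amotl2 were higher, by less and to a like extent in the clones. The Amotl1 levels were -0.93, -0.82 and -0.87 in controls, -0.61, -0.41 and -0.60 in clone 1 and -0.61 and -0.45 in clone 3. Both clones lay above every control and overlapped each other. The difference was 0.33 log2 in clone 1 (SE 0.11) and 0.34 log2 in clone 3 (SE 0.12). Amotl2, which is itself a YAP and TAZ target, was at 3.41, 3.63 and 3.36 in controls, 4.04, 4.05 and 3.89 in clone 1 and 3.90 and 3.90 in clone 3. This is 1.44-fold higher in clone 1 (0.52 log2, SE 0.11) and 1.35-fold higher in clone 3 (0.43 log2, SE 0.13), again without overlap with the controls. Amot was lower, and Amotl1 and Amotl2 higher, on each of the 5 knock-in arrays than on any control.

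**Figure D2:**
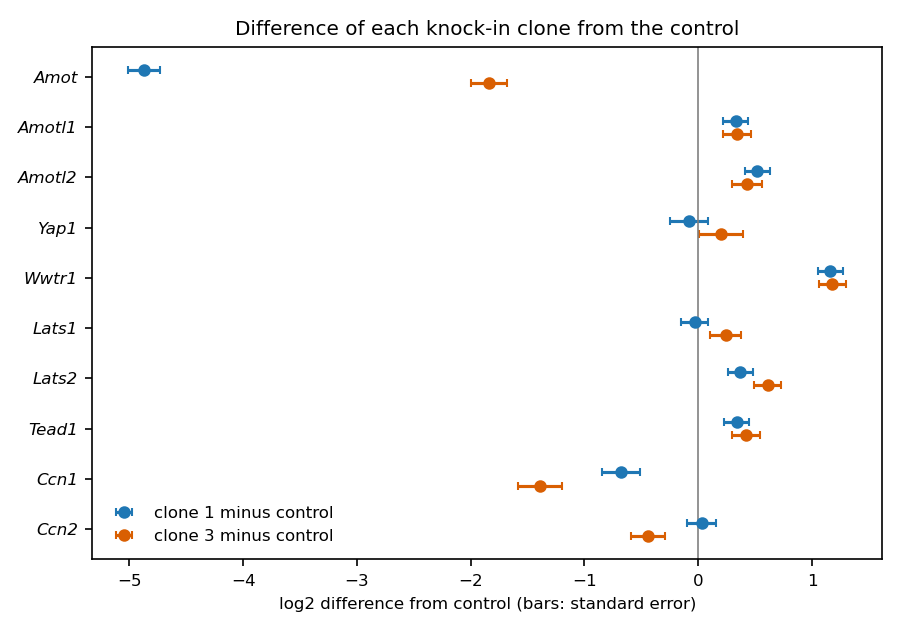
Difference of clone 1 and clone 3 from the control for each of the 10 genes in log2 units, with standard errors from the fit over all genes. Amot lies at -4.87 and -1.84, Wwtr1 at 1.16 and 1.18, and Ccn1 at -0.68 and -1.39.

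Of the coactivator genes Wwtr1 was higher in both clones and Yap1 overlapped the controls in clone 1. Wwtr1, which encodes TAZ, was at 2.50, 2.37 and 2.58 in controls, 3.66, 3.72 and 3.53 in clone 1 and 3.62 and 3.71 in clone 3. Every knock-in array lay above every control, and the clones overlapped. The gene was 2.23-fold higher in clone 1 (1.16 log2, SE 0.11) and 2.27-fold higher in clone 3 (1.18 log2, SE 0.12), and the clones differed by 0.03 log2 (SE 0.12). Yap1 was at 4.32, 4.27 and 4.19 in controls, 4.38, 3.78 and 4.39 in clone 1 and 4.41 and 4.51 in clone 3. The second clone 1 array lay below every other array and the remaining 2 above the controls, so that clone 1 overlapped the controls. The difference was -0.08 log2 in clone 1 (SE 0.17), 0.12 log2 without that array, and 0.20 log2 in clone 3 (SE 0.19).

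Tead1, which encodes a DNA-binding partner of both coactivators, was at 2.96, 2.81 and 3.00 in controls, 3.25, 3.21 and 3.33 in clone 1 and 3.24 and 3.44 in clone 3. Both clones lay above the controls and overlapped each other, with differences of 0.34 log2 (SE 0.11) and 0.42 log2 (SE 0.12). The other probes of Tead1 gave 0.42 and 0.46 log2 and 0.25 and 0.54 log2. The last of these overlapped the controls in clone 1.

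Of the kinase genes Lats2 was higher in both clones, while Lats1 overlapped the controls in both. Lats2, which is also a target of YAP and TAZ, was at 2.24, 2.18 and 2.42 in controls, 2.58, 2.59 and 2.76 in clone 1 and 2.88 and 2.90 in clone 3. The 3 groups did not overlap and stood in the order control, clone 1, clone 3, with differences from control of 0.37 log2 (SE 0.11) and 0.61 log2 (SE 0.12). A second Lats2 probe gave 0.43 and 0.79 log2 without overlap. The remaining one, assigned to another Lats2 transcript accession, gave -0.19 and -0.35 log2 and overlapped the controls. Lats1 was at 2.56, 2.63 and 2.39 in controls, 2.45, 2.47 and 2.56 in clone 1 and 2.60 and 2.93 in clone 3. The differences of Lats1 from control were -0.03 log2 in clone 1 (SE 0.12) and 0.24 log2 in clone 3 (SE 0.14). The other Lats1 probe, at 0.07 and 0.21 log2, overlapped the controls in both clones as well.

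The matricellular genes were lower or near the control level. Ccn1 was at 4.27, 4.31 and 4.40 in controls, 3.70, 3.52 and 3.72 in clone 1 and 3.27 and 2.60 in clone 3. The 3 groups did not overlap and stood in the order control, clone 1, clone 3, and the SD of clone 3 was 0.47, beside 0.07 in controls and 0.11 in clone 1. Ccn1 was 1.60-fold lower in clone 1 (-0.68 log2, SE 0.17) and 2.62-fold lower in clone 3 (-1.39 log2, SE 0.19). With only one of the clone 3 arrays the difference of clone 3 was -1.06 or -1.72 log2. Ccn2 was at 3.09, 2.76 and 2.78 in controls, 2.98, 3.00 and 2.74 in clone 1 and 2.48 and 2.39 in clone 3. Clone 1 overlapped the controls (0.03 log2, SE 0.13), while clone 3 lay below both groups (-0.44 log2 from control, SE 0.15).

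Because all controls lie in the first row of array positions, each difference was also taken with the row as a block. Clone 1 is then compared with the controls through its single array there, the one with the low spike-in signal of 2797. Clone 3 has no array in that row and is linked to the controls through the same array and the other clone 1 arrays. In clone 1 the values were then -5.01 log2 for Amot, 1.18 for Wwtr1, 0.57 for Amotl2 and -0.63 for Ccn1. In clone 3 they were -2.05 log2 for Amot, 1.22 for Wwtr1, 0.50 for Amotl2 and -1.32 for Ccn1. Amotl1 was at 0.26 and 0.23 log2, Lats2 at 0.30 and 0.51 log2 and Tead1 at 0.33 and 0.40 log2. The difference of Yap1 from control became 0.12 log2 in clone 1 and 0.49 log2 in clone 3. Within the second row, clone 3 minus clone 1 was 2.96 log2 for Amot and -0.69 log2 for Ccn1. It was -0.02 log2 for Amotl1, -0.07 for Amotl2, 0.04 for Wwtr1 and 0.07 for Tead1.

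Other genes of the pathway were then read from 7 lists of 85 genes, of which 79 were well above background on every array of a group and were tested with limma. The test was adjusted over all 25353 genes and unnamed transcripts. In clone 1 it called 28 of the 79, or 35.4%, beside 31.1% of all tested. These were 21 higher (26.6%, beside 14.7% of all) and 7 lower (8.86%, beside 16.5%). In clone 3 it called 24, or 30.4%, beside 30.2% of all, with 15 higher (19.0%, beside 13.3%) and 9 lower (11.4%, beside 17%). In both clones 17 were called, 21.5% beside 23.5% of all, with 13 higher (16.5%, beside 11.3%) and 4 lower (5.06%, beside 12.2%). The total share was near that of all tested, while more of the calls were higher and fewer lower, a split that was not tested. The listed genes all have a symbol, whereas all tested include unnamed transcripts. Shares among tested genes with a symbol were not computed, so the split may partly reflect the unlike reference. Of these 17 genes 6 kept both calls under each alternative and each array left out, Crb3, Itch, Vgll3, Foxf2, Nt5e and Ccn4. With the row as a block 4 were higher and 2 lower in both clones. The calls of these 6 genes held, but the size of some rests on the background correction. With normexp the clone 1 difference shrank from 5.27 to 3.51 log2 for Nt5e, from 1.47 to 0.95 for Crb3 and from -1.15 to -0.69 for Foxf2. It changed less for Itch (0.9 to 0.83 log2), Vgll3 (1.18 to 1.17) and Ccn4 (-4.27 to -3.86). None of the 79 was called between the clones, where 0.0749% of all were (0.0434% higher and 0.0316% lower in clone 3). At an unadjusted p under 0.05 10 of them differed between the clones, 12.7% beside 10.8% of all.

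Of 20 tested Hippo kinases and activators 3 rose in both clones, 1 fell and 16 were not called in both, which is 20% called beside 23.5% of all, with medians of 0.07 and 0.10 log2. Stk4, which encodes a kinase that activates the LATS kinases, was 0.96 log2 higher in clone 1 (SE 0.16, adjusted p = 0.00231) and 0.82 log2 higher in clone 3 (adjusted p = 0.00928), and its other probe gave 1.86 and 1.97 log2. Its paralog Stk3 rose by 0.50 and 0.55 log2 (adjusted p = 0.0304 and 0.0337) and the scaffold gene Wwc2 by 0.35 and 0.39 log2 (adjusted p = 0.0392 and 0.0379). Mink1, of the MAP4K family of kinases that can act on LATS, fell (-0.48 and -0.58 log2, adjusted p = 0.0236 and 0.0188). With the row as a block Stk3 (0.61 and 0.72 log2), Wwc2 (0.31 and 0.34 log2) and Mink1 (-0.36 and -0.39 log2) lost both calls, and Stk4 that in clone 3 (1.00 log2, adjusted p = 0.0979). Stk3, Wwc2 and Mink1 also lost both calls without the filter on dim probes (adjusted p up to 0.134). With median scaling Mink1 lost both calls and Wwc2 that in clone 1 (adjusted p up to 0.0645). Stk3 lost a call without any 1 control array, clone 1 replicate 1 or 3, or either clone 3 array (adjusted p up to 0.123), and Wwc2 without any 1 array other than clone 3 replicate 2 (up to 0.204). Mink1 lost a call without control replicate 2 or 3, clone 1 replicate 2 or 3, or clone 3 replicate 1 (up to 0.0994). The clone 3 call of Stk4 ended without clone 3 replicate 2 (adjusted p = 0.0718). Tnik was above background on 1 control array and was not tested.

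Among 11 inhibitors of the LATS kinases and of the kinases of Stk3 and Stk4, which include the striatin phosphatase complex, 1 rose in both clones and the other 10 were not called in both, 9.09% called beside 23.5% of all. Slmap, an adaptor of that complex, rose by 0.86 log2 in clone 1 (adjusted p = 0.00294) and by 0.69 log2 in clone 3 (adjusted p = 0.0152). With the row block its clone 3 call was lost (0.82 log2, adjusted p = 0.144), as it was without the dim-probe filter (adjusted p = 0.0568) and without clone 3 replicate 1 (adjusted p = 0.0979). Medians of the list were 0.08 and 0.17 log2.

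Of 13 tested genes for cell polarity and junctions, which feed into the pathway, 5 were called in both clones, 4 higher and 1 lower, and 8 were not, 38.5% called beside 23.5% of all. In clone 1 6 were higher and 3 lower (69.2%, beside 31.1% of all), and in clone 3 4 were higher and 2 lower (46.2%, beside 30.2%), with medians of 0.02 and 0.32 log2. Crb3, which encodes a small apical Crumbs protein, was at -2.06 ± 0.15 in the 3 controls, -0.59 ± 0.07 in the 3 arrays of clone 1 and -0.70 ± 0.01 in the pair of clone 3 (mean ± SD). The rise of Crb3 was 1.47 log2 (SE 0.11, adjusted p = 2.91e-05) and 1.36 log2 (adjusted p = 1.09e-04). Pals1, the partner of Crumbs that links it to Patj, rose by 0.77 and 0.80 log2 (adjusted p = 0.00265 and 0.00428). The junction gene Tjp1 rose by 0.78 and 0.93 log2 (adjusted p = 0.00325 and 0.00268) and the polarity gene Dlg1 by 0.50 and 0.73 log2 (adjusted p = 0.0165 and 0.00519). Pard3, a polarity scaffold, fell on its brightest probe (-0.69 and -0.48 log2, adjusted p = 0.00155 and 0.0159), but 3 of its 6 probes were higher in both clones, and the mean of all its probes was 0.30 and 0.20 log2. With the row as a block the clone 3 calls of Pals1 (0.70 log2), Pard3 (-0.55), Dlg1 (0.63) and Tjp1 (0.66) ended, and the clone 1 calls of Dlg1 (0.43) and Tjp1 (0.60). Without the dim-probe filter the clone 1 call of Dlg1 (adjusted p = 0.0646) and the clone 3 call of Pard3 (adjusted p = 0.0676) ended, the latter also with median scaling (adjusted p = 0.0504). The clone 1 call of Dlg1 also ended without control replicate 3 (adjusted p = 0.052) or clone 1 replicate 2 (adjusted p = 0.0578), and the clone 3 call of Pard3 without clone 3 replicate 2 (adjusted p = 0.0812). Fat4 was above background on no array.

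Among 10 genes for partners of the angiomotins and for their turnover, 3 rose in both clones, 0 fell and 7 were not called in both, 30.0% called beside 23.5% of all, with medians of 0.03 and 0.10 log2. Itch, which encodes a ubiquitin ligase that binds angiomotins, was 0.90 log2 higher in clone 1 (SE 0.10, adjusted p = 3.04e-04) and 0.84 log2 higher in clone 3 (adjusted p = 9.57e-04). The related ligase gene Nedd4 rose by 0.66 and 0.57 log2 (adjusted p = 0.0109 and 0.0346). Magi1, a junction scaffold, rose by 0.51 and 0.75 log2 (adjusted p = 0.00794 and 0.00235), while 1 of its 3 probes gave -0.66 and -0.51 log2 and the mean of its probes in clone 1 was 0.16 log2 (adjusted p = 0.284). With the row as a block Nedd4 (0.63 and 0.51 log2) and Magi1 (0.45 and 0.67 log2) lost both calls. The clone 3 call of Nedd4 also ended without the dim-probe filter (adjusted p = 0.109) and without control replicate 2 or 3 or either clone 3 array (adjusted p up to 0.139).

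Of the other TEAD genes and the Vgll genes, whose products compete with YAP and TAZ for TEAD factors, 6 were tested. Vgll3 was at 2.18 ± 0.20 in the 3 controls, 3.36 ± 0.10 in clone 1 and 3.41 ± 0.02 in clone 3 (mean ± SD), and rose by 1.18 log2 (adjusted p = 2.04e-04) and 1.23 log2 (adjusted p = 3.70e-04). In clone 1 Tead2 was also called higher (0.34 log2, adjusted p = 0.0452) and Vgll4 lower (-0.48 log2, adjusted p = 0.0267). Neither was called in clone 3, with Tead2 at 0.36 log2 (adjusted p = 0.061) and Vgll4 at -0.15 log2 (adjusted p = 0.507). Called genes were thus 3 of 6 in clone 1, beside 31.1% of all, and 1 of 6 in clone 3, beside 30.2%. In both clones 1 of 6 was called, beside 23.5% of all. None of the 6 was called between the clones, and nothing is read from the contrast of these small counts. Tead3, Tead4 and Vgll1 were called in neither clone, and Vgll2 was above background on no array.

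Targets of YAP and TAZ were read from a published signature of 22 genes, of which Ccn1, Ccn2, Amotl2 and Lats2 are described above. Of the 17 others that were tested 1 was higher and 1 lower in both clones and 15 were not, 11.8% beside 23.5% of all, and the medians were -0.02 and -0.05 log2. Nt5e, which encodes an enzyme that makes adenosine outside the cell, was at -3.59 ± 0.12 in controls, 1.68 ± 0.11 in clone 1 and 1.59 ± 0.06 in clone 3 (mean ± SD over 3, 3 and 2 arrays). It rose by 5.27 log2 (SE 0.11, adjusted p = 6.02e-08) and 5.18 log2 (adjusted p = 1.75e-07). Foxf2, a forkhead factor gene, fell in both clones (-1.15 log2, SE 0.15, adjusted p = 7.16e-04, and -1.55 log2, adjusted p = 3.14e-04). Ankrd1, among the most used readouts of YAP, differed by -0.28 log2 in clone 1 (adjusted p = 0.123) and 0.01 log2 in clone 3 (adjusted p = 0.965). Ankrd1 and the genes that follow, called in one clone, were chosen after their values were seen. F3 (0.77 log2), Tgfb2 (0.66) and Nuak2 (0.62) were called higher in clone 1. In clone 3 they were not called, at 0.22 log2 (adjusted p = 0.382), 0.42 (0.0625) and 0.51 (0.121). Igfbp3 (-0.53 log2) and Gadd45a (-0.41) were called lower in clone 3. In clone 1 they were not called, at -0.33 log2 (adjusted p = 0.139) and -0.27 (0.0734). Each of these genes had the same sign in both clones. None of these was called between the clones. Ccdc80 was above background on no array.

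**Figure D3:**
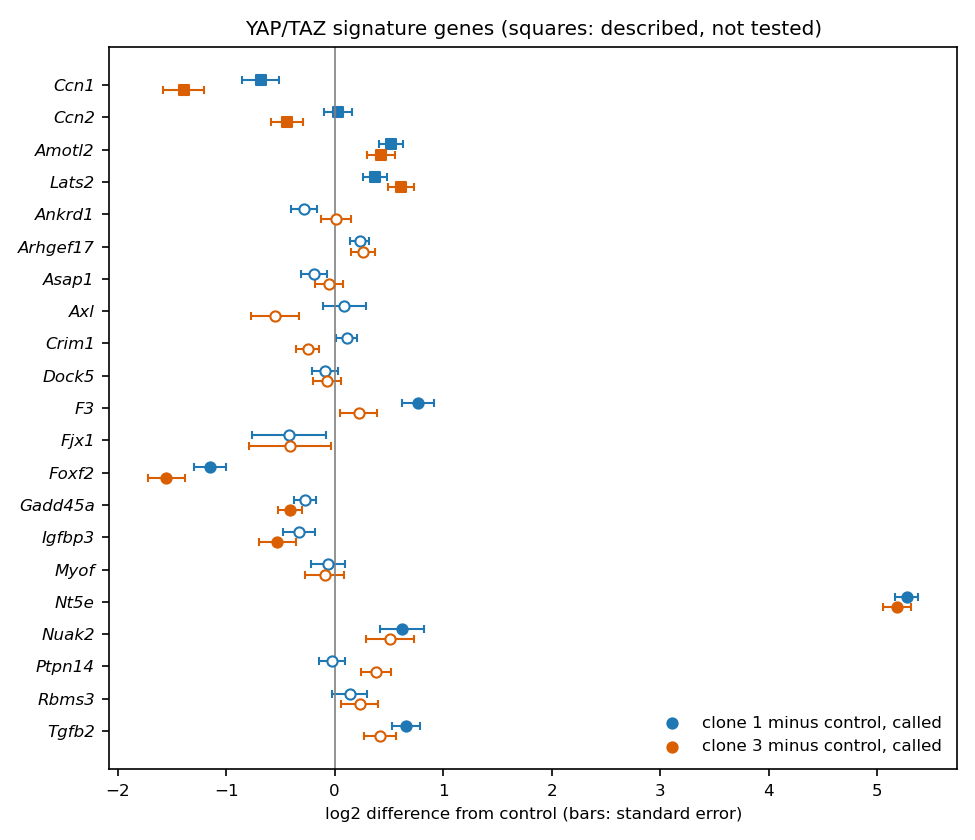
Log2 differences from control, with standard errors, of the signature genes of YAP and TAZ in clone 1 and clone 3, filled where limma's adjusted p was under 0.05 and drawn as squares for the 4 genes that are described without a test. Most lie near 0, with Nt5e at 5.27 and 5.18 and Foxf2 at -1.15 and -1.55.

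The other Ccn genes are relatives of Ccn1 and Ccn2. Ccn4 was at 3.43 ± 0.09 in the 3 controls and -0.83 ± 0.03 in the 3 clone 1 arrays (mean ± SD). It fell in clone 1 (-4.27 log2, SE 0.10, adjusted p = 7.76e-08) and in clone 3 (-4.43 log2, adjusted p = 1.75e-07). Its other probe, above background on 3 of 8 arrays, gave -3.37 and -4.47 log2. Ccn3 and Ccn6 were above background on no array, and Ccn5 was not called, at -1.61 log2 (adjusted p = 0.0556) and -1.46 log2 (adjusted p = 0.110).

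**Figure D4:**
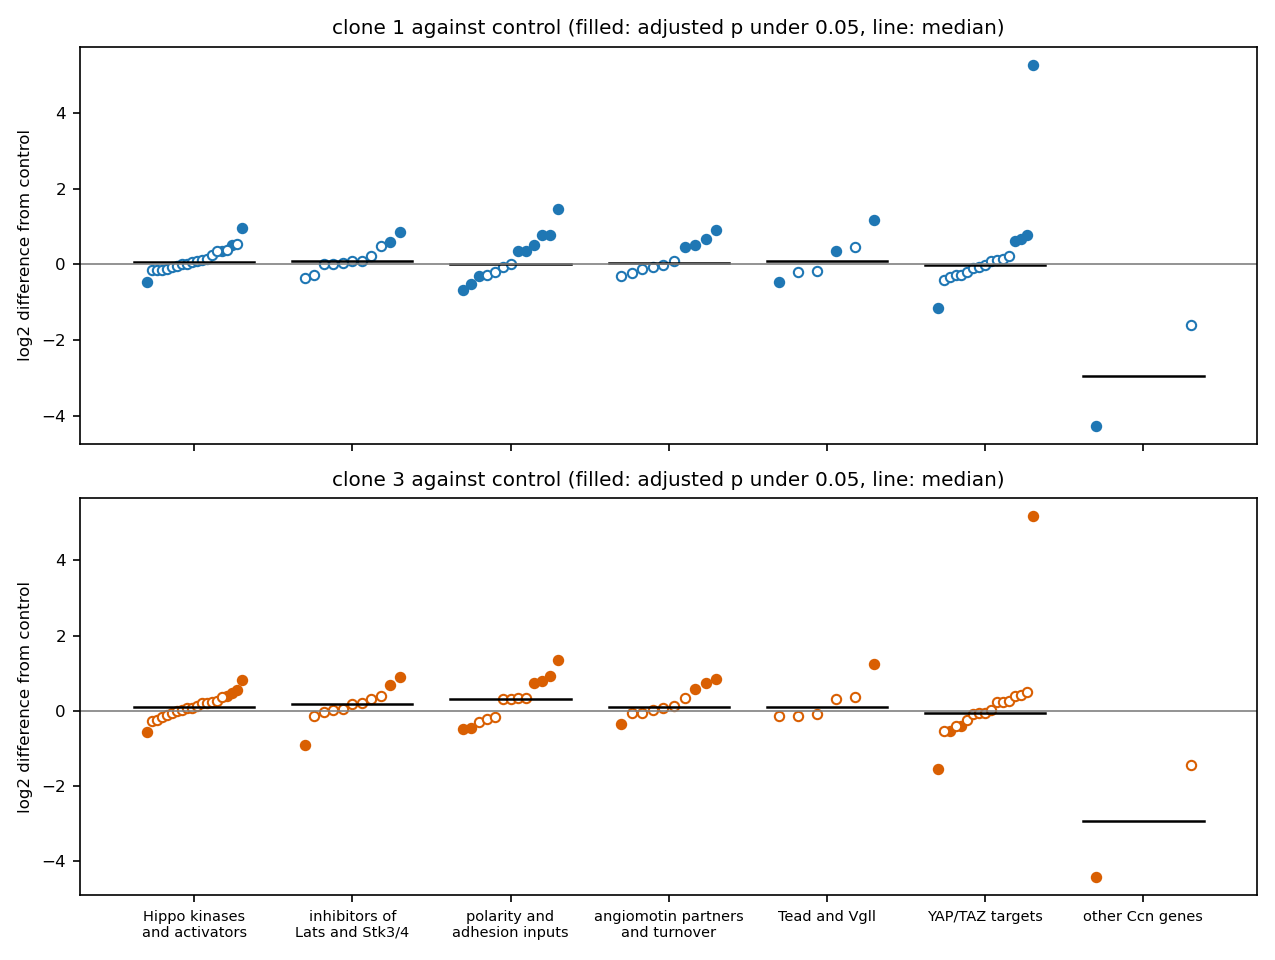
Log2 difference from control of each tested gene of the 7 pathway lists in clone 1 (top) and clone 3 (bottom), filled where limma's adjusted p was under 0.05, with the median of each list as a line. Medians of the first 6 lists lie between -0.05 and 0.32, and single genes such as Nt5e, Crb3, Vgll3 and Ccn4 stand apart from their lists.

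The pattern of Amot over the 8 arrays was set against that of 14718 other tested genes with a symbol, by the Euclidean distance of levels relative to the mean of the controls. The nearest were Agpat4 at a distance of 1.67, Eci1 at 2.27, Cd1d1 at 2.38, Hs3st3b1 at 2.47 and Gm13003 at 2.52. Agpat4, which encodes an acyltransferase of phospholipid synthesis, was at 2.24, 2.08 and 2.29 in controls, -2.06, -2.40 and -2.12 in clone 1 and -0.66 and -0.46 in clone 3. Eci1, an isomerase gene of fatty acid oxidation, was at 4.37, 4.44 and 4.52 in controls, 0.60, 0.76 and 1.02 in clone 1 and 2.12 and 2.16 in clone 3. Both were lower in clone 1 than in clone 3, as was Amot, and were above background on all 8 arrays, whereas Hs3st3b1 and Gm13003 were at background on every knock-in array and Cd1d1 on 4 of 5.

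**Figure D5:**
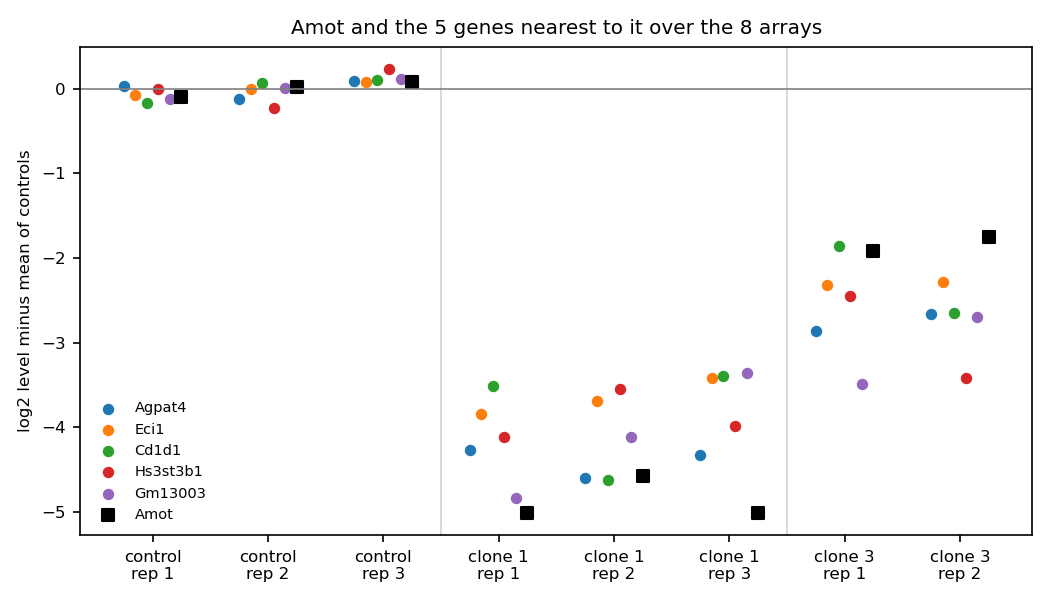
Log2 level minus the mean of the controls on each array for Amot (squares) and the 5 genes nearest to it (circles). Amot averages -4.87 on the clone 1 arrays and -1.84 on the clone 3 arrays, and Agpat4 -4.40 and -2.77.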

How the data were processed

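Total RNA of 8 TEC71 samples was labelled with Cy3 for 1-colour Agilent arrays, per the labels' protocols. The authors deposited a linear intensity per spot, background-subtracted by the scanner software, which the submitters' processing notes name as Feature Extraction 11.5.11. Per the file headers its flags mark saturated, uneven or outlying spots. All 8 arrays share 1 slide and 1 scan, so that neither could be a block. Control spots were dropped, with 114 to 242 outlier spots on each array. The deposited intensity was turned into log2, averaged over spots of a probe and scaled by subtracting each array's 75th percentile. Probes were named by transcript accession through RefSeq names of GRCm38.p6, which named 32994 of 56605 probes. The array headers give an older build, so probe coordinates were not used here. A gene was represented by its brightest probe and tested where all arrays of some group had that probe well above background.

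One limma 3.58.1 fit in R 4.3.3 of the 3 groups (lmFit, contrasts, eBayes; two-sided p-values, adjusted by Benjamini-Hochberg across the whole table, threshold 0.05) gave differences, standard errors and adjusted p-values, with 5 residual and 3.38 prior degrees of freedom. The fit was also run on simulated arrays with independent normal noise and known changes, equal in both clones. These held no effect of array position and no background floor, so that run cannot check the fit against either. The number of arrays limits the precision. The 10 genes and the lists were chosen with earlier results of these data known. By rule, genes named from the lists were those called in both clones, all if 5 or fewer, and those above background in no whole group where 3 or fewer. Named outside this rule were Tead2, Tead3, Tead4, Vgll1, Vgll4, Ccn5, Ankrd1, F3, Tgfb2, Nuak2, Igfbp3 and Gadd45a. Alternatives were normexp with offset 50 on median signals, quantile and median scaling, other filters, averaging a gene's probes, a robust variance trend, the row of array positions as a block, and each array left out. The summed level of the blood cell marker list is not reported here.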

Additional observations from a re-analysis of the deposited data

Results flagged for a closer look

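The differences of Amot from control differed between the clones by 3.03 log2 (SE 0.16), with both clone 3 arrays above all 3 clone 1 arrays. Only 1 of the clone 1 arrays was well above background, and the difference was 1.17 log2 with normexp and 1.30 log2 with the mean of all Amot probes. Amot is described without a test, since it was proposed on these arrays. Agpat4 lay 1.63 log2 higher in clone 3 than in clone 1 (limma adjusted p = 0.00858) and Eci1 1.35 log2 higher (adjusted p = 0.0171). Both were picked for their likeness to Amot over the same arrays, so these values are no independent evidence of a difference between the clones. No test for a single outlying array was run in these groups of 3 or 2 arrays.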

How the results depend on the processing

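For the 10 genes, 224 of 237 differences under the alternatives and 228 of 240 with an array left out moved by less than the spread between replicates. Many of these could not move. The filters and the variance trend leave the levels as they are, and averaging probes leaves genes with a single probe unchanged. An array left out changes only comparisons that include its group. These counts therefore do not measure how stable the differences are. Amot moved most, in clone 1 to -2.56 log2 with normexp and -2.06 log2 with the mean of its 3 probes, where 2 probes were at background. Members whose arrays did not overlap the controls numbered 7 to 8 in clone 1 and 9 to 10 in clone 3 with an array left out, 8 in clone 1 without its second array. Fewer arrays make overlap less likely for any gene, and the share of all genes under these settings was not computed. Nothing is read from these counts either.

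Called genes and transcripts numbered 7896 in clone 1 and 7669 in clone 3, and with the row as a block 4349 and 2068. Without a filter 5103 were called in clone 3. With an array left out they ranged from 6223 to 7926 and from 5150 to 7464. Between the clones 19 were called, 46 with normexp, 7 without a filter, 62 with a variance trend and 8 to 61 with an array left out (8 without the second clone 1 array, 61 and 35 without the first and second clone 3 arrays). In clone 1 3716 were higher and 4180 lower, and in clone 3 3362 and 4307, and with median scaling the balance turned, to 3622 and 3448 in clone 1 and 3687 and 3343 in clone 3.

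Of the listed pathway genes 28 were called in clone 1 and 24 in clone 3, 17 and 13 without a filter and 13 and 6 with the row as a block. In both clones 13 were higher and 4 lower, 8 and 2 without a filter, 4 and 2 with the block, and 2 lower with median scaling. With an array left out the counts ranged from 18 to 29 in clone 1 (18 without the third control), 16 to 22 in clone 3, 9 to 12 higher and 3 to 5 lower in both, and 0 between the clones. Pard3 reversed to 0.30 and 0.20 log2 with the mean of all probes. The causes were not tested. No paired analysis was possible because the labels give no replicate numbers shared between groups. Where 1 array of clone 3 was left, it was assumed to vary like the other groups.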

Other observations

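Probes of a gene did not always move together. The 6 probes of Pard3 were each above background on all 8 arrays and gave differences from control in clone 1 of -0.69, 0.77, 1.07, 0.64, 0.24 and -0.23 log2, and in clone 3 of -0.48, 0.58, 1.11, 0.52, -0.02 and -0.54 log2, in order of brightness. The 3 probes of Magi1 gave 0.51, 0.64 and -0.66 log2 in clone 1. Of the 3 probes of Lats2, that of accession NM_153382, at -0.19 and -0.35 log2, overlapped the controls in both clones, where the others lay above them. The 3 probes of Mink1 went one way, at -0.48, -0.57 and -0.35 log2 in clone 1 and -0.58, -0.54 and -0.38 log2 in clone 3.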
